A study of Mus musculus with 2 samples.

Results

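Ccr2 monocytes were 347 of the 26145 cells kept from the injured thalamus, 14 with the control antibody (Ab) and 333 with anti-CD9 Ab. The cells were chosen by their own UMI counts of marker genes: a cell was counted when it held at least 1 UMI (a tagged RNA molecule) of Csf1r, at least 3 of Lyz2 and at least 4 of Ccr2, Ly6c2, Plac8 and Vcan together. It also held no more than 3 UMIs of C1qa, C1qb and C1qc, no more than 2 of a set of macrophage genes that includes Nos2 and Slc7a2, no more than 1 of P2ry12, Siglech and Gpr34, and none of Cd3d, Cd3e and Cd3g. The levels of these genes, and the separation of the cells from macrophages, microglia and T cells on them, were therefore set by the choice and are given as a description. Chil3 and Ifitm6, a pair of other classical monocyte genes, were not used. The data carry no measure of where a cell came from, so the name describes RNA content and not recruitment.

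Ccr2 is the chemokine receptor by which classical monocytes leave the bone marrow and enter inflamed tissue. In the injured brain such cells mix with resident microglia, and after entry they can lose monocyte genes and take on macrophage genes such as Apoe, Spp1, Trem2 and Gpnmb. Classical monocytes carry high Ly6c2 and Ccr2 RNA, whereas patrolling, non-classical monocytes carry Treml4, Adgre4, Ace and Nr4a1.

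Both libraries held CD45+ cells from the thalamus of C57B6/J mice with cortical ablation injury (CAI), the surgical removal of sensory and motor cortex. Either control rat IgG or anti-CD9 Ab was injected into the thalamus through a cannula between day 7 and day 19, and cells were collected on day 21. There was 1 library for each antibody, and all mice shared the injury, the cannula and the antibody injections. The study pooled 4 mice for a thalamus library, without repeating that number for the antibody groups. The antibody, the pool of mice and the library therefore cannot be told apart, and no comparison below carries a test. Intervals are exact 95% Poisson or binomial intervals and cover counting error only. The libraries held 12245 barcodes and 38042608 UMIs with control Ab, and 15173 barcodes and 40825201 UMIs with anti-CD9 Ab. They shared 54 barcodes, which belonged to 0 of the control Ab monocytes and 3 of the anti-CD9 Ab monocytes.

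In the control Ab library 0.120% of kept cells were monocytes (interval 0.0655 to 0.201%), and in the anti-CD9 Ab library 2.30% (2.07 to 2.56%). The log2 ratio of the shares was 4.27. Among the myeloid cells with at least 1 Csf1r and 3 Lyz2 UMIs, they were 14 of 1725 (0.812%) and 333 of 2789 (11.9%). The higher share with anti-CD9 Ab was thus also present when lymphocytes were left out of the denominator. The whole composition differed between the libraries. Giving control Ab first, T cells made up 45.7% and 17.4% of kept cells, microglia 16.1% and 4.70%, and neutrophils 0.163% and 5.80%. Macrophages that met the same myeloid gate and held at least 3 UMIs of the set that includes Nos2 and Slc7a2 (Nos2 macrophages) numbered 6 and 700. Those with at least 4 UMIs of the C1q genes instead (C1q macrophages) numbered 181 and 787. Both kinds also held no more than 1 UMI of P2ry12, Siglech and Gpr34, with no limit on other microglia genes. The names describe these gates. The monocytes themselves were of similar depth in both libraries, with a median of 4367 and 4576 UMIs and of 1902 and 1938 genes. Applying the rule to cells thinned to 2000 UMIs left 12 of 5186 control Ab cells and 257 of 6448 anti-CD9 Ab cells.

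**Figure D1:**
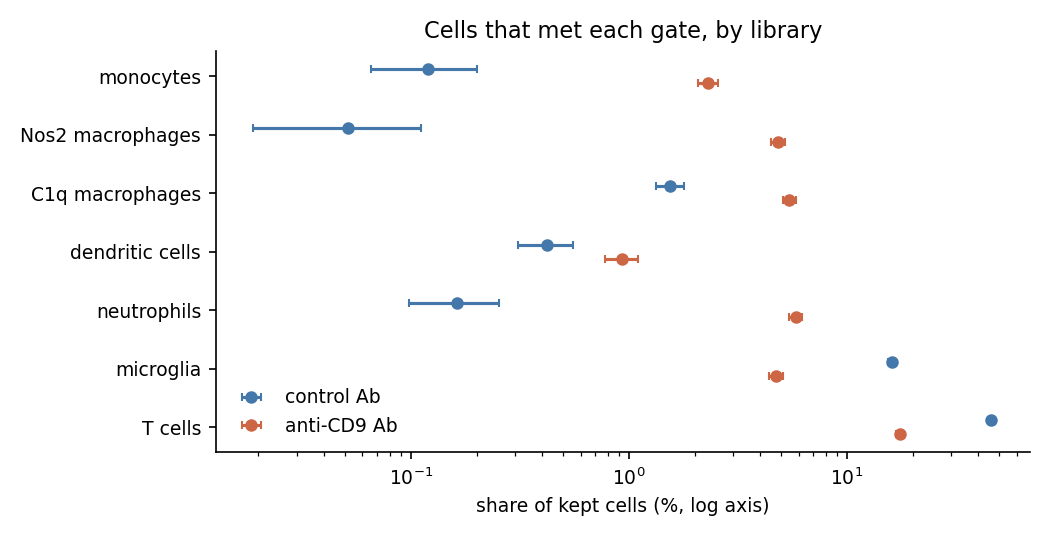
Share of kept cells (%, log axis) of monocytes and the other cell groups in the control Ab and anti-CD9 Ab libraries; bars are exact 95% binomial intervals. Monocytes were at 0.120% in the control Ab library and 2.30% in the anti-CD9 Ab library, and T cells and microglia had the opposite order.

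The gate cut through a continuous range and not through a gap. With anti-CD9 Ab, 16 monocytes had the lowest allowed sum of the 4 signature genes (4 UMIs), and 18 cells that met every other condition missed it by 1. At the C1q limit, 18 cells were just inside and 10 just outside, and at the limit of the Nos2 set these numbers were 29 and 18. The limits bore more on the small control Ab group. There, 25 cells missed the rule by the C1q limit alone and 10 by the Cd3 limit alone, beside 234 and 25 in the anti-CD9 Ab library. Without the Cd3 limit the cells numbered 24 and 358, with a log2 ratio of shares of 3.59, and without the C1q limit 39 and 567, with a log2 ratio of 3.56. The signature itself was shared with neighbouring cells. In the anti-CD9 Ab library, 403 of the 700 Nos2 macrophages and 234 of the 787 C1q macrophages also held at least 4 UMIs of the signature genes. Cells above the limits of the macrophage genes thus often carried the same monocyte RNA.

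Among the genes used by the rule, Plac8, a small cysteine-rich protein gene of myeloid cells, was the most abundant signature gene. Plac8 UMIs per anti-CD9 Ab monocyte ranged from 0 to 150 with a median of 19, and per control Ab monocyte from 0 to 90 with a median of 7.5. At least 1 Ccr2 UMI was present in 250 of 333 anti-CD9 Ab monocytes (75.1%) and in 8 of 14 control Ab monocytes (57.1%). Vcan, a matrix proteoglycan gene, was present in 21.9% and 21.4% of them. Ccr2 and Plac8 were not particular to these cells: after thinning every cell to 1500 UMIs, Ccr2 was found in 54.5% of anti-CD9 Ab monocytes and 35.0% of T cells, and Plac8 in 87.0% and 31.1%. T cells can themselves use both genes, so these T cell shares are not a clean background.

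Chil3 and Ifitm6 allowed the label to be checked on genes outside the rule. Chil3 encodes a secreted chitinase-like protein, and Ifitm6 a membrane protein of the interferon-induced family. Chil3 UMIs per anti-CD9 Ab monocyte ranged from 0 to 85 with a median of 2. At 1500 UMIs per cell, Chil3 was present in 48.3% of anti-CD9 Ab monocytes (interval 42.7 to 53.9%). The share was 24.5% in Nos2 macrophages, 13.1% in C1q macrophages, 1.49% in microglia and 0.651% in T cells. Ifitm6 was present in 20.7% of the monocytes (16.5 to 25.6%), and in 3.19% of Nos2 macrophages, 3.63% of C1q macrophages and 0.837% of T cells. Both genes were therefore more frequent in the anti-CD9 Ab monocytes than in these neighbours. For this library, 10 monocytes and 370 T cells were too shallow to be thinned, and the median depths of all monocytes and T cells were 4576 and 2456 UMIs. Without thinning, 239 of the 333 (71.8%, interval 66.6 to 76.5%) held Chil3 or Ifitm6.

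The control Ab library gave a weaker check of the label, on few cells. Of its 14 cells, 6 (42.9%, interval 17.7 to 71.1%) held Chil3 or Ifitm6 without thinning. The 14 cells were also unlike each other. Of the Spp1 UMIs, 61.5% came from 1 cell, and 3 cells with 4880, 7780 and 12047 UMIs held 343, 755 and 100 Spp1 UMIs and 25, 38 and 46 Cd9 UMIs. These 3 cells held 0, 1 and 0 Plac8 UMIs. Another cell carried 14 UMIs of Cd209a, a lectin gene of monocyte-derived dendritic cells. At least 3 of the 5 genes Ccr2, Vcan, Plac8, Chil3 and Ifitm6, some of them in the rule, were present in 3 of the 14 (21.4%, interval 4.66 to 50.8%). In the anti-CD9 Ab library these were 199 of 333 (59.8%, 54.3 to 65.1%). Whether all 14 cells are monocytes could not be settled, and the name stands for cells that met the rule. A comparison of the libraries therefore sets 333 cells against a small and mixed group.

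**Figure D2:**
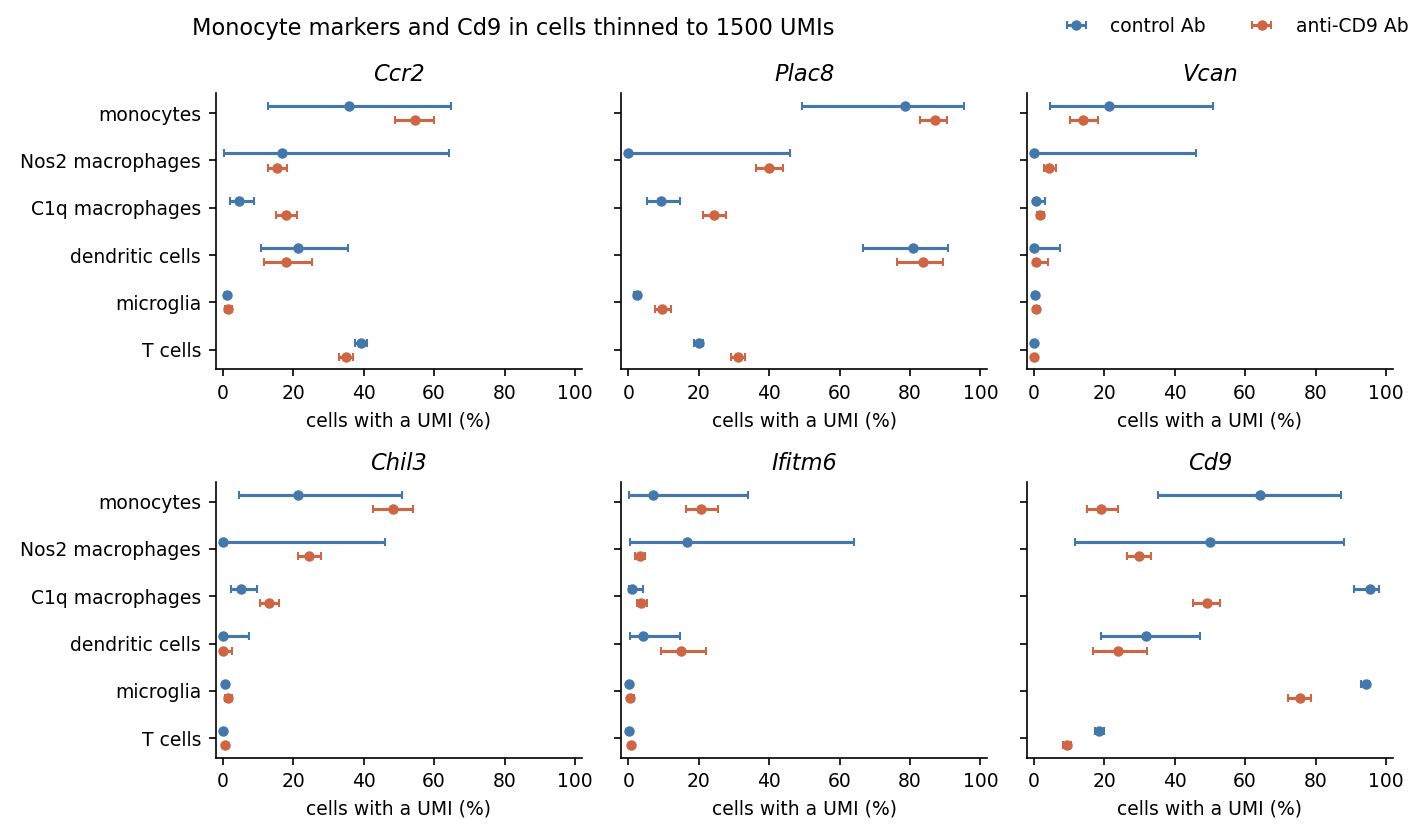
Percent of cells, thinned to 1500 UMIs, with at least 1 UMI of Ccr2, Plac8, Vcan, Chil3, Ifitm6 and Cd9, by cell group and library, with exact 95% binomial intervals. Chil3 was present in 48.3% of anti-CD9 Ab monocytes and 24.5% of Nos2 macrophages, and Cd9 in 64.3% of control Ab and 19.2% of anti-CD9 Ab monocytes.

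A level is the sum of a gene's UMIs in all cells of one kind, divided by their total UMIs and given per 1000000 (CPM), and log2 ratios are those of CPM. The most abundant transcripts of the anti-CD9 Ab monocytes, apart from mitochondrial and ribosomal protein genes, were Fth1 (ferritin heavy chain, 32126 CPM), Tmsb4x (23107 CPM), Lyz2 (lysozyme, 17120 CPM), Actb (11284 CPM) and Tpt1 (9692 CPM). They were followed by Saa3, an acute-phase serum amyloid gene, at 9087 CPM. Cd74, the invariant chain of MHC class II, stood at 7067 CPM, Plac8 at 5337 CPM, Fcer1g at 4452 CPM and H2-Aa at 3979 CPM. A lysozyme-rich cell with acute-phase and antigen presentation transcripts was thus the average content, although Saa3 and MHC class II were unevenly spread over the cells.

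Cd9, which encodes the tetraspanin recognised by the injected antibody, was lower in the anti-CD9 Ab monocytes. It stood at 240 CPM with anti-CD9 Ab and 1747 CPM with control Ab, a log2 ratio of -2.86 (interval -3.16 to -2.56). At 1500 UMIs per cell, it was present in 19.2% (15.1 to 23.9%) and 64.3% (35.1 to 87.2%) of monocytes, and in 9.35% and 18.6% of T cells. The size rested on the mixed control Ab cells: with at least 6 signature UMIs required, which left 10 control Ab cells without the 3 Spp1-rich ones, the log2 ratio was -0.80. Cd9 was also less frequent in the anti-CD9 Ab library in C1q macrophages (49.1% against 95.3%) and in microglia (75.5% against 94.3%). Of the 8 tetraspanins with at least 50 UMIs over both libraries, 3 were at least 2-fold lower and 0 higher, and the list median was 0.02. Across all 4887 genes with that many UMIs, 7.35% were at least 2-fold lower and 18.1% at least 2-fold higher, with a median of 0.11. Cd63 (90.2 against 426 CPM) and Cd81 (29.4 against 96.3 CPM) were the other members past 2-fold, while the leukocyte tetraspanin Cd53 stood at 402 and 358 CPM. The RNA level does not show how much CD9 protein was present or bound.

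Inflammatory mediator genes were higher with anti-CD9 Ab. Of 17 such genes tested, 15 were at least 2-fold higher and 0 lower, against 18.1% of all genes, and their median log2 ratio was 2.00. Il1b, which encodes interleukin-1 beta, stood at 1436 CPM with anti-CD9 Ab and 193 CPM with control Ab, a log2 ratio of 2.90 (2.15 to 3.77). Lcn2, an iron-sequestering acute-phase protein gene, stood at 561 and 13.8 CPM, a log2 ratio of 5.35 (2.87 to 10.66) that rests on 1 control Ab UMI. Saa3 stood at 9087 and 509 CPM, a log2 ratio of 4.16 (3.69 to 4.67). For Saa3 and Il1b, 1 control Ab cell held 97.3% and 92.9% of the control Ab UMIs, and without it the log2 ratios were 9.27 and 6.61, each from 1 control Ab UMI. Cd14, the lipopolysaccharide co-receptor, had 481 CPM with anti-CD9 Ab and no UMI in the 14 control Ab cells, so it was at least 11.7-fold higher against a floor of 3 UMIs over the group. Cxcl2, a neutrophil-attracting chemokine gene, was likewise at least 6.98-fold higher, from 288 CPM against 0 UMIs. T cells, which should lack Saa3, held it in 29.1% of thinned anti-CD9 Ab cells beside 61.3% of monocytes, and Il1b in 7.07% beside 55.4%. With control Ab, 1.32% of T cells held Saa3, and the part of free RNA in the Saa3 ratio was not tested.

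Chemokines followed the same order. Of 10 CC chemokine and receptor genes, 7 were at least 2-fold higher, against 18.1% of all genes, and 0 lower, with a median of 1.49. Ccl5 stood at 2284 CPM with anti-CD9 Ab and 68.8 CPM with control Ab, a log2 ratio of 5.05 (3.83 to 6.68). T cells also express Ccl5, and at equal depth 34.4% of anti-CD9 Ab T cells and 45.2% of monocytes held it. Cxcl10, an interferon-induced T cell attractant, stood at 1425 and 41.3 CPM, a log2 ratio of 5.11 (3.56 to 7.39) from 3 control Ab UMIs. Cxcl9 stood at 489 and 13.8 CPM. The wider type I interferon list did not share this size: of 25 genes, 6 were at least 2-fold higher and 1 lower, with a median of 0.39. Isg15, a ubiquitin-like interferon-induced protein gene, stood at 380 and 468 CPM, a log2 ratio of -0.30 (-0.80 to 0.24).

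Classical monocyte genes were also higher on the whole, with 9 of 21 at least 2-fold higher, against 18.1% of all genes, 0 lower and a median of 0.84. None of the 21 was in the rule. Chil3 stood at 1539 CPM with anti-CD9 Ab and 275 CPM with control Ab, a log2 ratio of 2.48 (1.85 to 3.20). Ifitm6 stood at 197 and 110 CPM, with a log2 ratio of 0.84 whose interval (-0.15 to 2.07) included 0. Hp (haptoglobin) stood at 908 and 275 CPM, a log2 ratio of 1.72 (1.09 to 2.44). Fn1 (fibronectin) stood at 620.5 and 316 CPM, and 0.97 (0.38 to 1.64).

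Macrophage maturation genes had the opposite order. Of 21 tested, 11 were at least 2-fold lower with anti-CD9 Ab, against 7.35% of all genes, 2 were higher, and the median was -1.05. Spp1 (osteopontin) stood at 106 CPM with anti-CD9 Ab and 16890 CPM with control Ab, a log2 ratio of -7.31 (-7.55 to -7.08). Gpnmb, a transmembrane glycoprotein gene of phagocytes, stood at 88.3 and 770 CPM, and Trem2, the lipid-sensing receptor gene of macrophages and microglia, at 109 and 385 CPM. Adgre1, which encodes F4/80, went the other way at 272 and 96.3 CPM, a log2 ratio of 1.50. This list depended on a few control Ab cells. Requiring at least 6 signature UMIs gave a median of 0.082 and an Spp1 log2 ratio of -2.60. At equal depth, Spp1 was held by 71.4% of control Ab monocytes and 67.4% of control Ab T cells, and by 14.9% and 13.9% with anti-CD9 Ab, so its share of cells was near the T cell background in both libraries.

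The MHC class II, adhesion, Fc gamma receptor, hypoxia and dissociation lists had medians between 0.28 and 0.57. MHC class II and dendritic genes had 1 of 8 at least 2-fold higher and a median of 0.28. That median was 1.14 without the control Ab cell richest in each gene, and it changed sign with no filter on low counts. Cd74 stood at 7067 CPM with anti-CD9 Ab and 6396 CPM with control Ab. Adhesion and trafficking genes had 4 of 16 higher and a median of 0.47, led by Icam1, a count near the 18.1% of all genes. Fc gamma receptor genes had 2 of 5 higher and a median of 0.57. Their top gene was Fcgr4, an activating receptor gene, at 253.6 and 68.8 CPM with a log2 ratio of 1.88 (0.65 to 3.51). Hypoxia and glycolysis genes had 3 of 16 higher and also a median of 0.57, and immediate early and stress genes induced by tissue dissociation had 3 of 12 higher and a median of 0.34, both likewise near that share.

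Of 4 myeloid precursor genes tested, 3 were at least 2-fold lower with anti-CD9 Ab, against 7.35% of all genes, in a list that turned on a single control Ab cell. Prtn3, which encodes proteinase 3, stood at 26.9 CPM with anti-CD9 Ab and 1320 CPM with control Ab, but 96.9% of the control Ab UMIs came from 1 cell. Without that cell the log2 ratio was -0.88, from 3 control Ab UMIs, in place of -5.62. Tuba1b (alpha tubulin) stood at 81.4 CPM with anti-CD9 Ab and 413 CPM with control Ab, with 80.0% of the control Ab UMIs in 1 cell and a log2 ratio of -0.28 without it in place of -2.34. Stmn1 (stathmin), a microtubule regulator gene used by dividing cells, stood at 23.2 and 798 CPM, and rested less on a single cell, with a log2 ratio of -4.37 without the richest cell in place of -5.11.

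**Figure D3:**
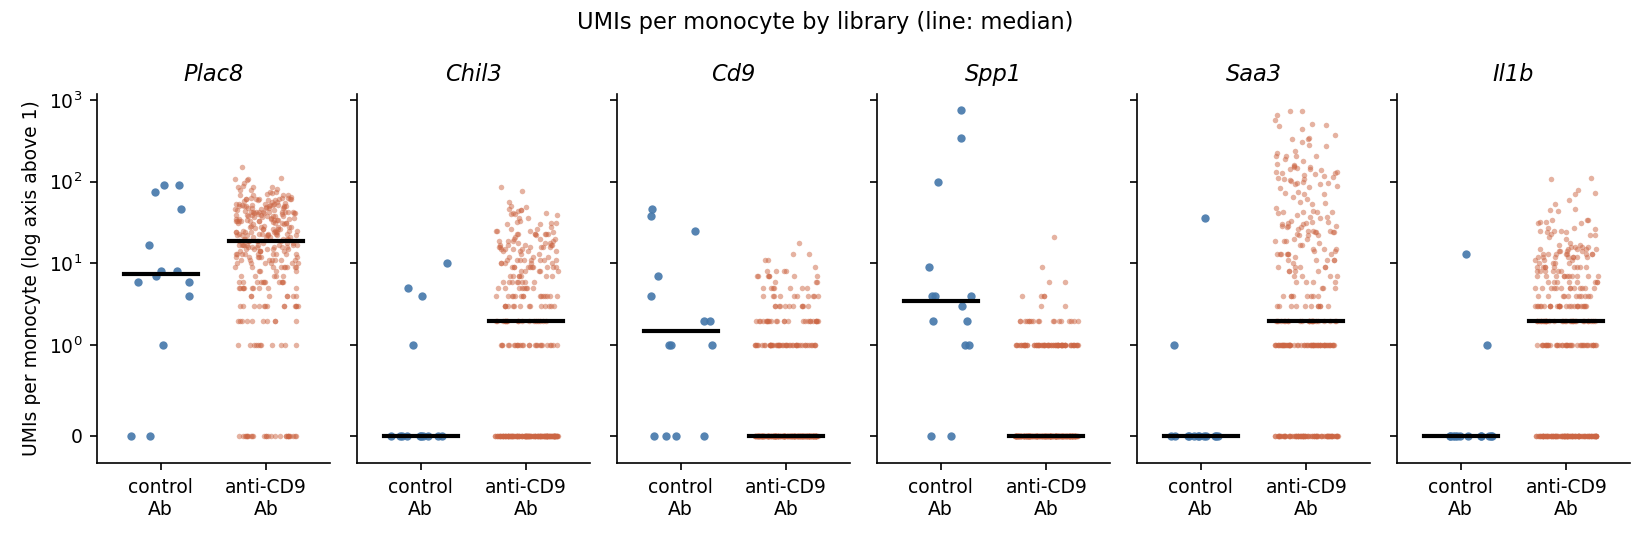
UMIs per monocyte of Plac8, Chil3, Cd9, Spp1, Saa3 and Il1b in each library (axis linear below 1 and log above); each point is a cell and the line is the median. A few control Ab cells hold most of the Spp1, Saa3 and Il1b UMIs, with 755 Spp1 UMIs in a single cell, while Saa3 reached 730 UMIs in an anti-CD9 Ab monocyte.

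Within the anti-CD9 Ab library, the monocytes could be set beside macrophages of the same tissue and preparation. The gene lists below hold no gene that separated these groups in the rule. The neighbours had to exceed a limit on the Nos2 set or the C1q genes that the monocytes had to stay within. The monocytes also had to hold at least 4 signature UMIs, a condition not set for the neighbours. Genes that vary together with these sets can therefore differ through the choice itself. Fcrls, a microglia gene, stood at 7.51 CPM in monocytes and 167 CPM in C1q macrophages. Whether that group holds microglia low in P2ry12, Siglech and Gpr34 was not tested. Against the Nos2 macrophages, 2.97% of 8359 genes with at least 50 UMIs were at least 2-fold higher in monocytes and 4.14% at least 2-fold lower. Against the C1q macrophages, these shares were 3.84% and 6.89% of 8272 genes. The median over all tested genes was 0.07 and 0.00.

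Classical monocyte genes were mostly higher in the monocytes. Ifitm6 stood at 197 CPM in monocytes, 25.6 CPM in Nos2 macrophages and 29.3 CPM in C1q macrophages, log2 ratios of 2.94 (2.63 to 3.26) and 2.75 (2.43 to 3.08). Chil3 stood at 1539, 402 and 203 CPM, log2 ratios of 1.94 (1.85 to 2.02) and 2.93 (2.81 to 3.05). S100a4, a calcium-binding protein gene of motile cells, stood at 474, 87.2 and 69.1 CPM. In all, the classical list had 7 of 21 genes at least 2-fold higher and 2 lower against Nos2 macrophages, with a median of 0.49 (0.90 against those with no more than 3 signature UMIs), and 14 higher and 0 lower against C1q macrophages, with a median of 1.23. Some members went the other way. F13a1, which encodes a coagulation factor subunit and is often used as a monocyte gene, stood at 625 CPM in monocytes and 1311 CPM in Nos2 macrophages, a log2 ratio of -1.07 (-1.17 to -0.97). Fn1 stood at 620.5 and 845 CPM, a log2 ratio of -0.45 (-0.55 to -0.34).

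Genes of non-classical monocytes were present as well. Treml4 stood at 68.9 CPM in monocytes, 11.6 CPM in Nos2 macrophages and 6.85 CPM in C1q macrophages. Adgre4 stood at 133 CPM in monocytes and 22.5 CPM in C1q macrophages, a log2 ratio of 2.56 (2.19 to 2.95). At equal depth, 8.36% of monocytes and 0.186% of T cells held Treml4. Of 9 non-classical genes tested against Nos2 macrophages, 3 were at least 2-fold higher and 1 lower, and of 10 against C1q macrophages, 4 and 2. Nr4a1, a nuclear receptor needed by non-classical monocytes and also an immediate early gene, had a log2 ratio of 2.82 (1.97 to 3.73) over Nos2 macrophages, and Fabp4, a fatty acid binding protein gene, had 1 UMI in the monocytes.

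Macrophage genes were lower in the monocytes than in both neighbours. Of 25 maturation genes, 17 were at least 2-fold lower and 0 higher against each, with medians of -1.35 and -1.93. The C1q and Nos2 limits of the gates can themselves shift such genes, so this order is a description. Apoe stood at 3237 CPM in monocytes, 17511 CPM in Nos2 macrophages and 26428 CPM in C1q macrophages, log2 ratios of -2.44 (-2.48 to -2.39) and -3.03 (-3.07 to -2.99). Cd63, a lysosomal tetraspanin gene, stood at 90.2, 624 and 1000.4 CPM, and Trem2 at 109, 430 and 702 CPM. Spp1 stood at 106, 1117 and 4590 CPM. Pf4, a chemokine gene of tissue macrophages, stood at 1.88 CPM in monocytes and 99.7 CPM in Nos2 macrophages, from 3 monocyte UMIs (log2 ratio interval -8.01 to -4.17). The order for Apoe, Cd63, Trem2 and Spp1 was therefore monocytes lowest, Nos2 macrophages next and C1q macrophages highest.

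Cd9 lay close to the Nos2 macrophages and well below the C1q macrophages. It stood at 240 CPM in monocytes, 311 CPM in Nos2 macrophages and 861 CPM in C1q macrophages, log2 ratios of -0.37 (-0.54 to -0.21) and -1.84 (-2.0 to -1.69). Cd81, its tetraspanin relative, stood at 29.4 CPM in monocytes and 480 CPM in C1q macrophages. Tspan13 was the tetraspanin gene highest in monocytes over Nos2 macrophages, at 64.5 and 13.4 CPM. Of 12 tetraspanins, 1 was at least 2-fold higher and 3 lower against Nos2 macrophages, and of 13 against C1q macrophages, 1 and 5.

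Inflammatory genes differed in order from gene to gene. Il1b stood at 1436 CPM in monocytes, 1259 CPM in Nos2 macrophages and 502 CPM in C1q macrophages. Saa3 stood at 9087, 25158 and 9038 CPM, so it was lower than in the Nos2 macrophages (-1.47, -1.49 to -1.44) and level with the C1q macrophages (0.01). Of 22 inflammatory genes, 1 was at least 2-fold higher and 5 lower against Nos2 macrophages (median -0.31), and of 20 against C1q macrophages, 6 and 0 (median 0.59). Taking only Nos2 macrophages with no more than 3 signature UMIs turned the first of these medians to 0.39. Cxcl10 was highest in the monocytes, at 1425, 532 and 421 CPM, from 93 of the 333 monocytes. Interferon response genes leaned the same way against C1q macrophages, and less clearly against Nos2 macrophages. In the latter comparison, 18 of 27 were higher and 9 lower, beside 4828 and 3531 of all 8359 genes. Of the 27, 2 were at least 2-fold higher, against 2.97% of all genes (median 0.28, or 0.99 with only those Nos2 macrophages). Against C1q macrophages, 25 of 27 were higher, beside 4128 of all 8272 genes. Of these, 8 were at least 2-fold higher, against 3.84% of all genes (median 0.81, or 1.36 with the same limit). In either comparison 0 were at least 2-fold lower. Ifitm1 stood at 793 CPM in monocytes and 122 CPM in Nos2 macrophages. Ly6a2, a Ly6 family gene, had one of the largest ratios against both, at 121 CPM against 7.23 and 7.40 CPM. The Ly6 genes are a family of close copies, between which the assignment of reads is uncertain.

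CC chemokine genes were split, with more members lower than higher. Against C1q macrophages, 3 of 13 were at least 2-fold higher and 4 lower (median -0.41), and against Nos2 macrophages 2 and 6 (median -0.20). Both medians lay further below 0 at a mitochondrial limit of 2%. The receptor gene Ccr1 stood at 193 CPM in monocytes and 63.3 CPM in C1q macrophages, a log2 ratio of 1.61 (1.36 to 1.86). Ccl8, a ligand gene, had 1 UMI in the monocytes, or 0.626 CPM, against 39.5 CPM in Nos2 macrophages and 109 CPM in C1q macrophages. Of the adhesion genes, 4 of 18 were at least 2-fold higher and 2 lower against Nos2 macrophages, and 7 of 17 higher and 0 lower against C1q macrophages. Hypoxia and glycolysis genes were lower than in Nos2 macrophages for 16 of 19 genes, beside 3531 of all 8359 genes. Of the 16, 3 were at least 2-fold lower, and 0 were higher by that much (median -0.34). That median was much nearer 0 against Nos2 macrophages with no more than 3 signature UMIs. Against C1q macrophages, 17 of 19 hypoxia and glycolysis genes were higher, beside 4128 of all 8272 genes. Of the 17, 2 were at least 2-fold higher, and 0 were lower by that much (median 0.32). Vegfa, which encodes an angiogenic growth factor, stood at 26.3 CPM in monocytes and 64.0 CPM in Nos2 macrophages. The Fc gamma receptor genes had 0 of 5 past 2-fold against either. MHC class II and dendritic genes had 3 of 9 at least 2-fold higher against Nos2 macrophages (median 0.75) and 1 of 9 against C1q macrophages (median 0.016), with 0 lower, and Cd74 stood at 7067 CPM in monocytes and 4950 CPM in Nos2 macrophages. The highest member of that list in both comparisons was Klrd1, with log2 ratios of 3.65 and 2.07.

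**Figure D4:**
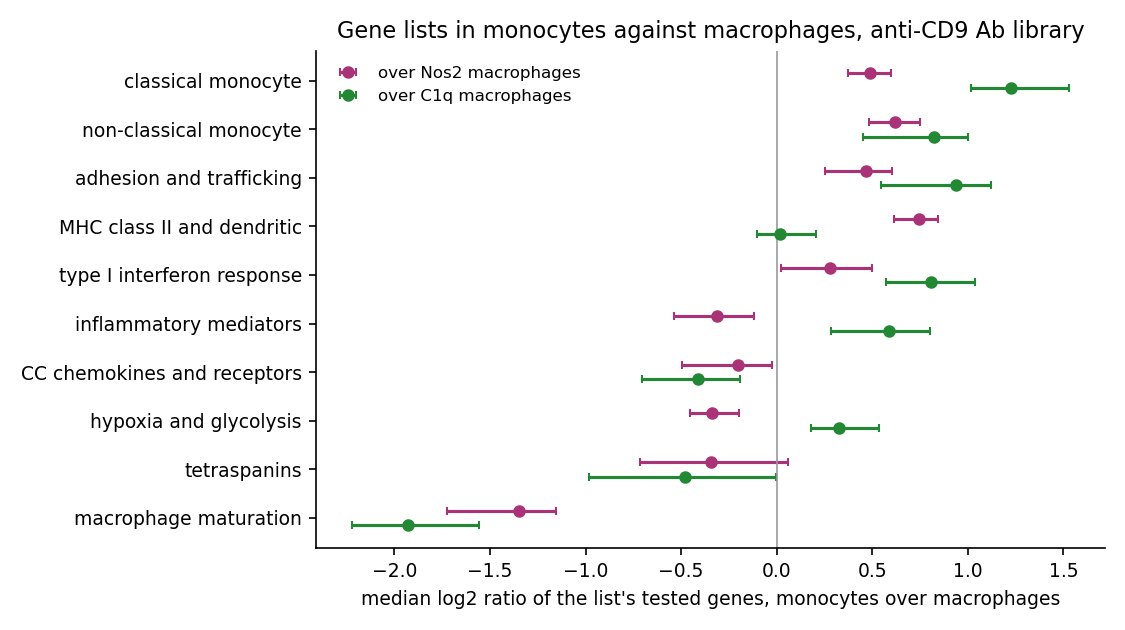
Median log2 ratio of the gene lists drawn, in anti-CD9 Ab monocytes over Nos2 macrophages and over C1q macrophages of the same library; bars run between the medians of the members' lower and upper 95% interval bounds. Of the lists drawn, macrophage maturation genes lie lowest (-1.35 and -1.93) and classical monocyte genes above 0 (0.49 and 1.23).

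The control Ab library, on 14 cells, could be set against its 181 C1q macrophages for fewer genes. The same limits of the gates applied, and Fcrls stood at 41.3 CPM in monocytes and 682 CPM in C1q macrophages. Apoe stood at 6148 CPM in monocytes and 34027 CPM in C1q macrophages, a log2 ratio of -2.47 (-2.61 to -2.33). Ifitm6 stood at 110 and 16.7 CPM (2.72, 1.27 to 4.05), and S100a4 had a log2 ratio of 2.96 (2.24 to 3.66). Cd9 stood at 1747 and 4643 CPM, a log2 ratio of -1.41 (-1.68 to -1.16), beside -1.84 in the anti-CD9 Ab library. The median of the classical list was 0.98, that of the maturation list -1.38 and that of the interferon list 1.02, on the same side of 0 as with anti-CD9 Ab. Other list medians lay on the opposite side: -0.40 for non-classical genes (0.82 with anti-CD9 Ab), -0.12 for adhesion (0.94), -0.39 for Fc gamma receptors (0.14), -2.40 for neutrophil genes (0.68), -2.83 for other brain cell genes (0.45) and 2.92 for cell cycle genes (-0.66). These differences between the libraries were not tested. Only 6 Nos2 macrophages were present with control Ab, and no comparison with them is given.

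The anti-CD9 Ab monocytes were not alike. Among the 323 that could be thinned to 1500 UMIs, 51.7% held no Chil3 and 38.7% no Saa3. The 10% of cells richest in a gene held 61.8% of all Saa3 UMIs, 65.3% of Ccl5 and 49.6% of Chil3, but 33.9% of the summed UMIs of the MHC class II genes Cd74, H2-Ab1, H2-Aa and H2-Eb1. That MHC class II sum ranged from 0 to 150 UMIs of 1500, with a median of 14.

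Chil3 and MHC class II were unequally shared between cells. In the 156 monocytes with Chil3 the median MHC class II sum was 3.5 UMIs (middle 50% of cells 1 to 14.25), and in the 167 without Chil3 it was 33 (11 to 59). The ranges overlapped, and the cut is a point on a range, since 36 of the 156 cells held exactly 1 Chil3 UMI of 1500, and the cells without Chil3 were deeper (median 5016 against 4052 UMIs before thinning). Of 4699 genes tested, 2.79% were at least 2-fold higher and 1.55% at least 2-fold lower in the cells with Chil3. H2-Eb1 stood at 1224 CPM with and 5097 CPM without Chil3, and Cd74 at 3601 and 9884 CPM. Of the 8 MHC class II and dendritic genes, 5 were at least 2-fold lower and 0 higher. Klrd1, a member of that list with fewer than 50 UMIs, had 1 UMI with and 43 without Chil3. Cells without Chil3 also held less of the rule's signature. The Plac8 median was 10 UMIs of 1500 with and 4 without Chil3. Ccr2 was present in 66.0% and 43.7% of these thinned cells, and Ly6c2 in 69.2% and 52.7%. What kind of cell those without Chil3 are was not tested. Cd72, a lectin-like receptor gene of B cells and some myeloid cells, stood at 31.2 and 193 CPM.

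**Figure D5:**
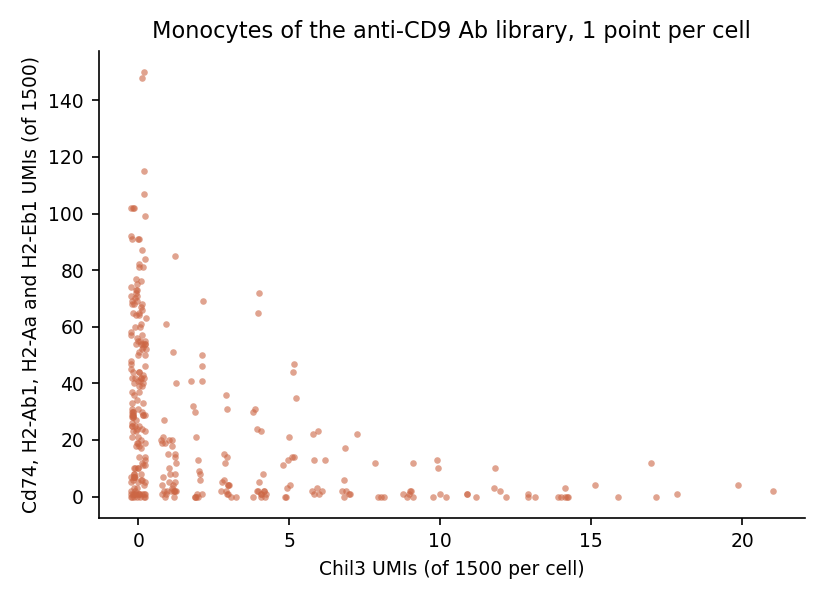
Chil3 UMIs and summed MHC class II UMIs (Cd74, H2-Ab1, H2-Aa, H2-Eb1) in each of 323 anti-CD9 Ab monocytes thinned to 1500 UMIs; points are shifted sideways at random so that they do not overlap. Cells without Chil3 have a median of 33 MHC class II UMIs and cells with Chil3 a median of 3.5, with wide overlap.

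Interferon response genes were higher in the monocytes with Chil3, with 13 of 25 at least 2-fold higher, 0 lower and a median of 1.06. Cxcl10 stood at 2789 CPM with and 347 CPM without Chil3, a log2 ratio of 3.01 (2.83 to 3.18). Before thinning it was held by only 38.5% of the cells with and 18.0% of those without Chil3. Ccl2, the ligand of Ccr2, stood at 182 and 19.3 CPM. Other classical genes lay on the same side, with Ifitm6 at 306 and 109 CPM and Thbs1 (thrombospondin 1) at 568 and 109 CPM. Other lists also differed between these cells. Of 12 genes induced by tissue dissociation, 11 were higher, 2 of them at least 2-fold (median 0.63), and of 6 neutrophil genes, 5 were higher, 1 of them at least 2-fold (median 0.50). That gene was Mmp8, a neutrophil collagenase gene, at 128 and 26.1 CPM, and the part of dissociation or neutrophil RNA in the Chil3 differences was not tested. Cd9 was lower in the cells with Chil3, at 122 and 328 CPM, a log2 ratio of -1.43 (-1.79 to -1.07). Apoe did not separate these cells (-0.05). Cells with Treml4, Adgre4 or Ace were 66 of the 323 and were divided almost evenly, 51.5% of them holding Chil3 beside 47.5% of the others. Pou2f2, a transcription factor gene, stood at 472 CPM in these 66 cells and 215 CPM in the rest.

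RNA of other cell types in the monocytes was measured as well. The neutrophil list summed to 1215 CPM in anti-CD9 Ab monocytes and 643 CPM in T cells of that library, and to 27.5 and 50.5 CPM with control Ab, where 12 of its 13 genes were at 0 in the monocytes. Between the libraries, 3 of its 6 tested genes were at least 2-fold higher with anti-CD9 Ab (median 1.66, with 5 of the 6 set at the control Ab floor), against 18.1% of all genes. Both tested genes of other brain cells, Mbp and Flt1, were higher by that much (median 1.74), each from 1 control Ab UMI and with an interval that included 0. S100a8 was held by 10.5% of thinned anti-CD9 Ab monocytes and 6.14% of T cells, and S100a9 by 9.60% and 9.49%, so the share of monocytes with S100a9 was no higher than that of T cells beyond counting error. Of the S100a8 and S100a9 UMIs, 91.2% lay in 17 monocytes with at least 10 of them. Of those 17 cells, 12 held the neutrophil receptor gene Csf3r, which 47.1% of all anti-CD9 Ab monocytes held, and 8 were predicted doublets. Microglia genes summed to 3232 CPM with control Ab and 1872 CPM with anti-CD9 Ab, most of it Cst3, a cystatin gene that other myeloid cells also express. B and plasma cell genes summed to 454 and 440 CPM, T and NK cell genes to 151 and 18.2 CPM with control and anti-CD9 Ab. Predicted doublets were 0 of 14 and 22 of 333 (6.61%), and the part of these RNAs in the differences above was not tested.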

How the data were processed

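The deposited files hold UMI counts per gene and cell barcode, which the authors made from 10x 3′ libraries of Dounce-dissociated, CD45-selected thalamus. The submitters' processing notes name Cell Ranger 8.0.0 and GRCm39, and the study's methods name another version and build, so no coordinate is given. Counting by strand is not given in the sources used here.

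Cells with 200 to 7500 genes and no more than 5% mitochondrial UMIs were kept (the study used 2%, which was tried as an alternative). Each gene's UMIs were added up within a cell group, scaled to CPM (counts per 1000000) and compared by log2 ratio with an exact conditional 95% interval. Genes with at least 50 UMIs over both sides were described, and 2-fold was the limit for counting. A side at 0 was set to a floor of 3 counts over the group. Shares of cells with a UMI used cells thinned to 1500 UMIs, with T cells as background. With 1 library per antibody no test was made. A doublet score was taken as how many of a cell's nearest neighbours were simulated doublets, and the highest scores were marked but not removed, at 0.8% per 1000 barcodes. The scripts were tested on simulated data.

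The monocytes, gene lists and reported splits were chosen with earlier results of these data known, and the splits by Chil3 and by non-classical genes and the lists shown after looking at the cells. The text names marker genes, Cd9, the extremes and most abundant gene of each list, the 15 most abundant genes, and the 12 genes with the largest ratios each way by the interval bound nearest to 0, of which some are given. Genes of the rule were left out of this ranking, both between the libraries and against neighbours. The ranking against Nos2 macrophages used the anti-CD9 Ab library alone, and that against C1q macrophages placed genes whose control Ab interval included 0 last. Other named genes were chosen after their values were seen: Hp, Fn1, Isg15, Treml4, Adgre4, Cd53, Ccl2, Thbs1 and Pou2f2. Some genes, among them a member of the Nos2 set of the rule, are not reported here. Of 314 list genes in 20 lists, 1 was not found, and for 26 symbols used more than once the first entry was read. The scripts ran in Python 3.11.15 with scikit-learn 1.9.0, Matplotlib 3.10.9, pandas 2.3.3, SciPy 1.17.1 and NumPy 2.4.6.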

Additional observations from a re-analysis of the deposited data

Results flagged for a closer look

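Some genes lay on opposite sides of 0 in the libraries when the monocytes were set against C1q macrophages, and these differences were not tested. The log2 ratio with anti-CD9 Ab and then with control Ab was -0.95 and 3.63 for Stmn1, -0.57 and 1.25 for Hmgn2, and -0.11 and 1.09 for Ptma, of which Stmn1 and Hmgn2 are used by dividing cells. It was -0.12 and 0.15 for Eef1a1, and -0.17 and 0.09 for Fth1.

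The other genes had 0 or 1 UMI in the 14 control Ab monocytes. With no UMI, the control Ab ratio was set at the floor of 3 counts and is a bound: Cd14 (0.76 and -2.20), S100a8 (0.87 and -2.45), S100a9 (1.02 and -2.97), Bnip3 (0.30 and -0.54) and Sdc4 (0.43 and -0.43). With 1 UMI, the values were 0.89 and -3.52 for Cxcl9, 0.54 and -2.90 for Icam1, and 0.45 and -2.78 for Mbp.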

How the results depend on the processing

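The log2 ratio of the monocyte share kept its direction and stayed within its counting interval under 8 of 8 alternatives (3.56 to 4.65, beside 4.27), which were a mitochondrial limit of 2%, predicted doublets removed, at least 3 or 6 signature UMIs, thinned cells, the myeloid denominator and the rule without its Cd3 or its C1q limit. Between the libraries, list medians moved by less than their intervals in 84 of 88 cases. The exceptions were the maturation list, -1.05, which reversed to 0.082 with at least 6 signature UMIs and stood at -0.32 without the control Ab cell richest in each gene, and the MHC class II list, 0.28, which stood at 1.14 without that cell and at -0.094 with no filter on low counts. Apoe (-0.93) reversed to 0.61 with at least 6 signature UMIs, Fabp5 (-2.63) to 1.38 with at least 6, and Lrba (-2.40) to 0.73 without the richest cell. Of 240 values of single genes, 183 kept their size and 54 moved.

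Against macrophages with no more than 3 signature UMIs, the medians over Nos2 macrophages were 0.90 for the classical list (0.49 before), -2.02 for maturation (-1.35), 0.99 for interferon (0.28), 0.39 for inflammatory genes (reversed from -0.31), 1.03 for adhesion (0.47) and -0.089 for hypoxia (-0.34). Over C1q macrophages they were 1.79 for the classical list (1.23), -2.27 for maturation (-1.93), 0.24 for MHC class II (0.016), 1.36 for interferon (0.81), 0.93 for inflammatory genes (0.59), -0.71 for CC chemokines (-0.41) and 0.54 for hypoxia (0.32). With a mitochondrial limit of 2%, the CC chemokine median was -1.16 over Nos2 macrophages (-0.20) and -1.39 over C1q macrophages, and adhesion 0.52 over C1q macrophages (0.94). With predicted doublets removed, the CC chemokine median over C1q macrophages was -0.10. The cause was not tested in any of these.

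Leaving out the richest control Ab cell, monocytes with B cell UMIs, the Cd3 limit or the C1q limit were chosen after seeing the data. No paired analysis was possible because each antibody has 1 library. The 14 control Ab monocytes, 72707 UMIs in all, limit every comparison between the libraries, and a gene at 0 there was below the floor of 41.3 CPM and not shown to be absent.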
